A study of Mus musculus with 19 samples.

Results

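Gene expression was compared between mouse embryonic fibroblasts that had received siRNA against Sec24b (the Sec24B knockdown, 5 libraries) and the same cells that had received scrambled siRNA (4 libraries). Both groups descend from a single labelled cell line in which Sec24d is knocked out, so every library described here lacks the SEC24D gene product by design, and the control is not wild type. The Sec24b siRNA was used at 50 nM according to the treatment text, and the control siRNA is labelled 50 nM scrambled, so the doses match. All libraries are labelled 48 h after transfection with Lipofectamine RNAiMAX, although the protocol places the collection of RNA in TRIzol on the day after the morning medium change. The comparison uses 9 of the 19 libraries and all 19635 genes that passed a low-value filter. Beside it stand 5 libraries in which Sec24a, Sec24b and Sec24c were targeted together (the triple knockdown) and 5 with 150 nM scrambled siRNA. All are in the same Sec24d-knockout cells, and they serve for the shared estimate of spread and for a test of where the effects differ. The Sec24 siRNA dose recorded for the triple knockdown is 50 nM. Whether that is per siRNA or in total was not established here, so a dose match with 150 nM scrambled siRNA cannot be judged. Nothing in the labels tells whether the replicates are independent cultures, and without that the p-values cover the spread among these libraries alone, which may be technical.

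SEC24 proteins form the inner COPII coat together with SEC23 and pick the cargo that leaves the endoplasmic reticulum (ER) in transport vesicles. SEC24A and SEC24B form one subfamily and SEC24C and SEC24D the other, with overlapping but not identical cargo. In mice, SEC24B is known for the export of VANGL2, a membrane protein of planar cell polarity. Fibroblasts secrete large amounts of collagen and other matrix proteins through this route, and cultured fibroblasts also mount interferon responses.

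Depth was similar between the groups, at 11490390 to 16927701 recovered reads per Sec24B knockdown library and 12627947 to 19709672 per 50 nM scrambled library. The library farthest from its own group was replicate 1 among the Sec24B knockdown libraries (median absolute log2 deviation 0.0868) and replicate 4 among the 50 nM scrambled libraries (0.1079), while the remaining 7 lay between 0.0336 and 0.0559. Fibroblast markers were abundant throughout, with 12 of 13 measured markers at a mean of at least 100 normalised counts in each group. Their summed level was 410910 to 482426 in the Sec24B knockdown and 498574 to 538462 with 50 nM scrambled siRNA, which do not overlap. The highest marker, Col1a1, averaged 161711 and 184130 in these groups and did not pass the test described below. Over the 13 markers the median log2 fold change was 0.02, with 2 higher and 1 lower, so the lower sum does not describe the markers in general. The 6 measured leukocyte markers summed to 274 to 339 in the Sec24B knockdown and 295 to 366 with 50 nM scrambled siRNA, most of it from Cd14, and Fcgr1 was at 0 in every control library. The 8 endothelial markers summed to 102 to 132 in the Sec24B knockdown and 92.7 to 119 with 50 nM scrambled siRNA, and the 6 epithelial markers to 52.8 to 74.2 and 42.5 to 83.8 in the same order, with Cldn4 at 0 in every knockdown library. The remaining markers of these lists, among them the leukocyte antigen Ptprc, were not analysed here. In bulk RNA, fewer cells of a type and less RNA per cell cannot be told apart.

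Sec24b (ENSMUSG00000001052, GRCm38 chr3:129982759-130061553, minus strand) was measured at 454, 487, 498, 485 and 473 normalised counts in the Sec24B knockdown libraries, against 1067, 1126, 1217 and 1046 in the 50 nM scrambled libraries. Every knockdown library lay below every control library. The log2 fold change was -1.21 ± 0.10 (SE, limma adjusted p = 2.01e-08). Its subfamily partner Sec24a stood at 733 ± 48.1 in the Sec24B knockdown (n = 5) and 836 ± 81.4 with 50 nM scrambled siRNA (n = 4), with a 95% interval of -0.47 to 0.09 for the log2 fold change, and did not pass the test (limma adjusted p = 0.422). When triple knockdown replicates 1 and 5, which enter only through the shared spread, were not in the fit, Sec24a passed as lower at the same fold change (-0.19, limma adjusted p = 0.0394). Sec24c was at 2634 ± 174 and 2635 ± 88.7 in the same groups (interval -0.12 to 0.12). Reads of the knocked-out Sec24d were still counted in both groups, at 353 to 524 in the Sec24B knockdown and 379 to 459.8 with 50 nM scrambled siRNA (interval -0.29 to 0.42). Which exons the allele removes is not stated, so these reads check nothing about the knockout.

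**Figure D1:**
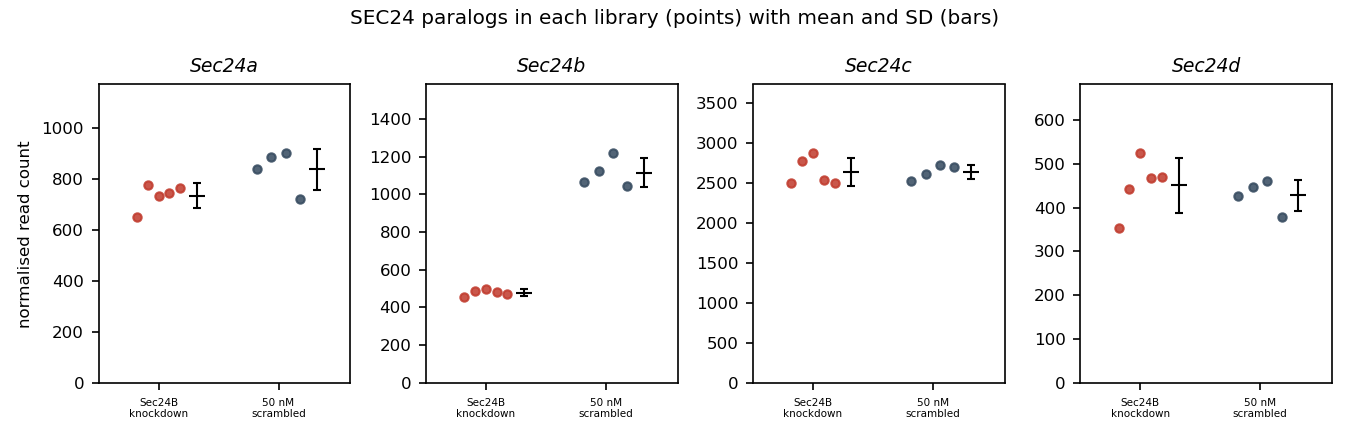
Normalised read counts of the SEC24 paralogs in the 5 Sec24B knockdown libraries (red) and the 4 libraries with 50 nM scrambled siRNA (dark blue), with mean and SD beside the points and each vertical axis starting at 0. Sec24b lies at 454 to 498 in the knockdown and at 1046 to 1217 in the control, while the points of Sec24a, Sec24c and Sec24d overlap between the groups.

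Across all genes, 2868 of 19635 passed at a limma adjusted p of 0.05, which is 14.6%. The rises numbered 1478 (7.53%) and the falls 1390 (7.08%), and in 2500 of the 2868 the libraries of the groups did not overlap. Most changes were modest: the median log2 fold change was 0.46 among the rises and -0.34 among the falls. A change of at least 1 on the log2 scale was reached by 226 rises and 87 falls, and by 96 and 36 with a mean of at least 20 normalised counts in the higher group. The share that passed grew with level, from 2.70% of genes averaging under 10 normalised counts to 25.2% of those between 1000 and 10000. Among genes averaging 1000 to 10000, 556 fell and 303 rose, and the median log2 fold change was -0.05, against 0.01 over all genes tested. Gene length moved with the direction of change as well, among genes averaging at least 20 normalised counts. In the shortest of 5 equal groups by genomic length (up to 5751 bp), 182 genes rose and 117 fell, while in the longest (65652 bp and more) 209 rose and 292 fell. The part of length and level in single results was not tested.

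**Figure D2:**
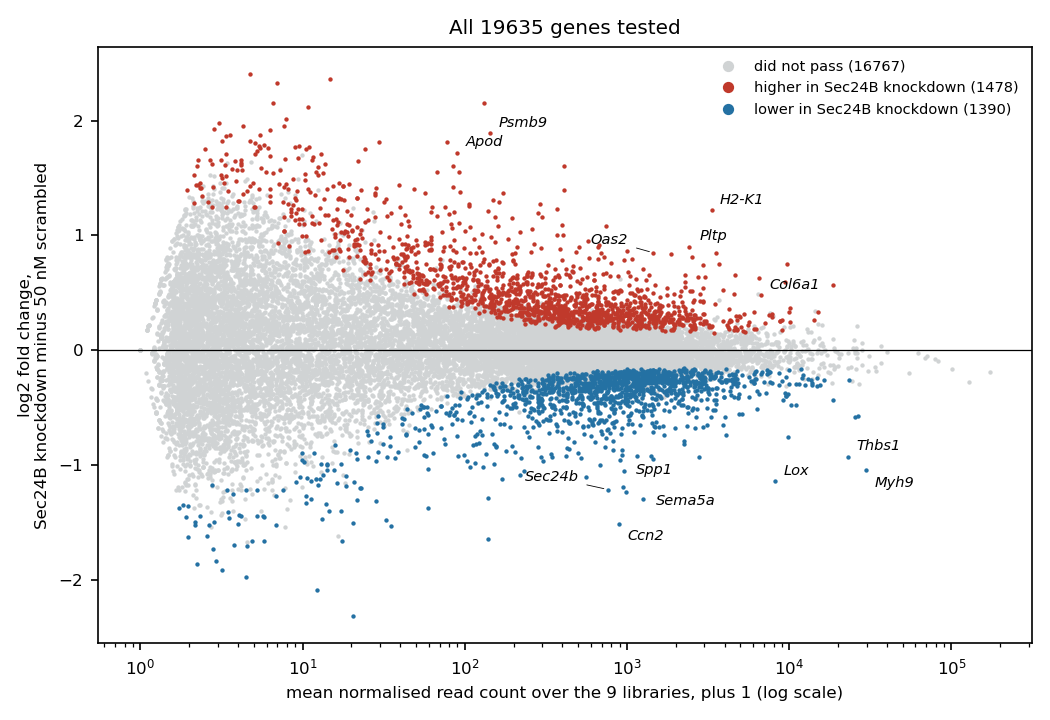
Log2 fold change, Sec24B knockdown minus 50 nM scrambled siRNA, against the mean normalised read count over the 9 libraries plus 1 (log axis) for the 19635 genes tested. Red points are the 1478 rises, blue points the 1390 falls and grey points genes that did not pass; above 1000 normalised counts few changes exceed 1 on the log2 scale, among them H2-K1 (1.22), Lox (-1.14) and Myh9 (-1.04).

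The rises with the greatest fold change among well-counted, non-overlapping genes were headed by Prelp, H2-Q4 and Psmb9. Prelp, a proteoglycan that anchors basement membranes, had 20.9, 23.5, 18.8, 19.9 and 25.9 normalised counts in the Sec24B knockdown libraries, against 5.43, 3.68, 4.72 and 1.18 in the 50 nM scrambled libraries. All control values are a few reads each. The log2 fold change was 2.36 ± 0.39 (SE, limma adjusted p = 0.000121). Fmod, a proteoglycan that binds collagen fibrils, was at 79.8 to 110.1 in the Sec24B knockdown and 22.4 to 46.4 with 50 nM scrambled siRNA (1.55 ± 0.29). Vnn1, a pantetheinase on the cell surface, was at 516 to 644 in the Sec24B knockdown and 168 to 214 with 50 nM scrambled siRNA (1.61 ± 0.10, limma adjusted p = 9.31e-11). Apod, a lipocalin that carries small lipids, averaged 129 ± 17.6 and 38.8 ± 7.27 in the same groups (1.72 ± 0.24). The scavenger receptor Scara5 (1.60 ± 0.29), the carboxylesterase Ces2e (1.81 ± 0.25) and the transcription factor Osr2 (1.75 ± 0.34) completed this set together with Phf11b and with Psmb9 and H2-Q4, both of antigen presentation. Among genes over 1000 normalised counts, the phospholipid transfer protein Pltp had 3150, 2899, 3027, 2975 and 3179 in the Sec24B knockdown, against 1618, 1650, 1520 and 1737 with 50 nM scrambled siRNA. Its libraries form separate, narrow groups (0.90 ± 0.08, limma adjusted p = 2.01e-08).

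The deepest falls included secreted and cytoskeletal genes. Ccn2, a matricellular protein formerly called CTGF (GRCm38 chr10:24595442-24598683, plus strand), had 438, 463, 507, 492 and 497 normalised counts in the Sec24B knockdown, against 1004, 1215, 1441 and 1969 with 50 nM scrambled siRNA. The control libraries spread widely and the knockdown libraries did not, and the groups stayed apart (-1.51 ± 0.17, limma adjusted p = 1.16e-06). The 150 nM scrambled libraries averaged 3528 for Ccn2. Sema5a, a semaphorin guidance protein, was at 673 to 807 in the Sec24B knockdown and 1684 to 2022 with 50 nM scrambled siRNA (-1.29 ± 0.13). Spp1, the secreted phosphoprotein osteopontin, was at 538 to 668 and 1180 to 1594 in the same groups (-1.19 ± 0.16). With 150 nM scrambled siRNA Spp1 averaged 4115. Among genes with fewer reads, the serine proteases Prss46 (-2.08 ± 0.30) and Prss22 (-1.66 ± 0.30), the oxidised LDL receptor Olr1 (-1.48 ± 0.28) and the titin-binding ubiquitin ligase Trim54 (-1.51 ± 0.31) fell. The organic anion transporters Slco1a6 and Slco1a5 fell by 2.32 and 1.53 on the log2 scale, with Slco1a6 at 3.69 to 12.8 in the Sec24B knockdown and 26.0 to 45.6 with 50 nM scrambled siRNA. These transporters are close paralogs, so the division of reads between them is uncertain. Tns4, a tensin, averaged 7.39 in the Sec24B knockdown and 21.3 with 50 nM scrambled siRNA (-1.40 ± 0.46, limma adjusted p = 0.0418), and its call was lost without any 1 of the 9 libraries (adjusted p 0.0591 to 0.102).

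Groups of genes were described by how many members passed, in each direction, and by their median log2 fold change. Over all genes tested 7.53% were higher and 7.08% lower, with a median of 0.01. Those shares include 5812 genes averaging under 10 normalised counts, of which 2.70% passed. Of 6900 genes averaging 100 to 1000, 747 rose and 664 fell, and of 3406 averaging 1000 to 10000, 303 rose and 556 fell. The lists were not matched for level, so a list of well-counted genes can exceed the all-gene shares through level alone. The lists and their members were also chosen with earlier results of these data known, so an excess over the all-gene shares may be built in. The lists covered 1142 tested genes, of which 352 passed, where 14.6% of all genes tested passed. Of these 352, 258 also passed without any 1 of the 9 libraries, and 94 lost their call without at least 1. With limma on the 9 libraries alone 4145 genes passed, and several lists had more calls, among them the interferon effectors below with 34 rises and 1 fall and the mitosis genes with 21 rises and 1 fall.

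**Figure D3:**
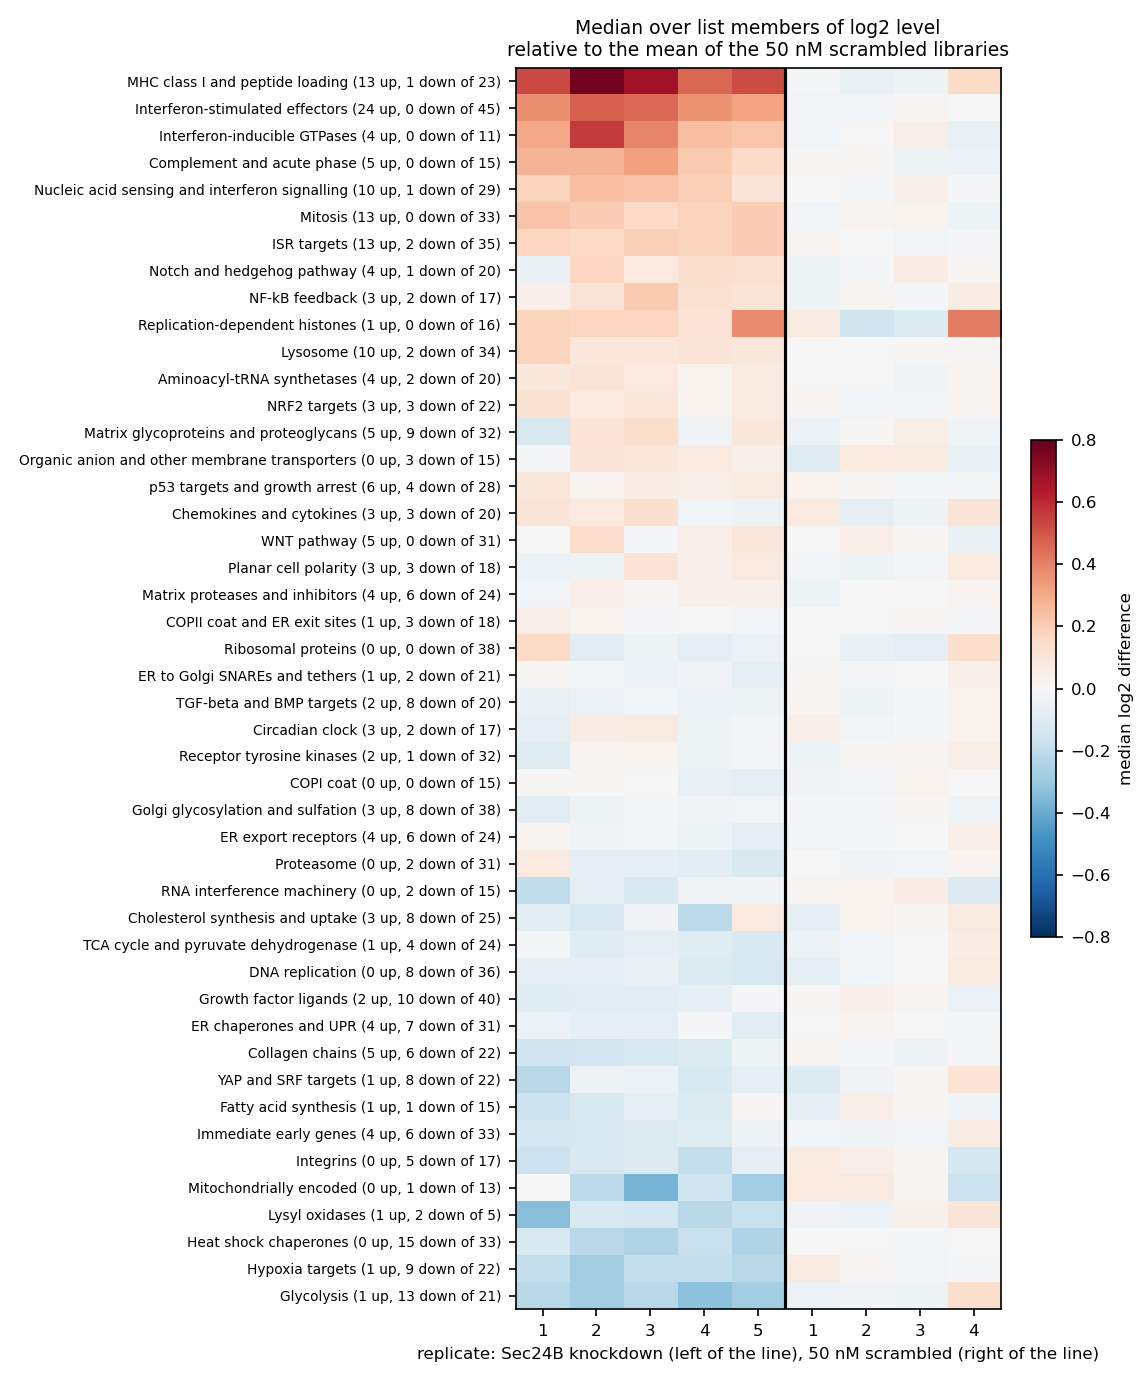
Median over list members of the log2 level relative to the mean of the 50 nM scrambled libraries. The 5 Sec24B knockdown libraries are left of the line and the 4 control libraries right of it. Gene lists with at least 5 tested members are shown, without the cell type marker lists. Labels give the counts of members that passed in each direction. Antigen presentation and interferon lists are red in all 5 knockdown libraries, and glycolysis, hypoxia and heat shock lists are blue in all 5.

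Interferon-stimulated genes rose together. Of 45 effectors tested, 24 passed and all of those were higher (53.3%), with a median log2 fold change of 0.36 over the list, and in 31 every knockdown library lay above every control library, as it did in 9.23% of all genes. Rsad2, the antiviral enzyme viperin (GRCm38 chr12:26442746-26456452, minus strand), had 363, 572, 561, 616 and 495 normalised counts in the Sec24B knockdown, against 247, 222, 244 and 253 with 50 nM scrambled siRNA. Replicate 1 was the lowest knockdown library and still exceeded every control. Mx1, a dynamin-like GTPase that blocks influenza viruses in mice, had 161, 294, 283, 211 and 238 in the Sec24B knockdown and 84.8, 94.9, 89.6 and 88.6 with 50 nM scrambled siRNA (1.37 ± 0.23, limma adjusted p = 0.000183). Ifitm1, a membrane protein that restricts virus entry, averaged 38.2 ± 6.87 and 13.7 ± 2.70 in these groups (1.41 ± 0.25). The nuclear body protein Sp100 rose by 0.90 ± 0.13. Among abundant members, Isg15, a ubiquitin-like modifier, averaged 7319 ± 659.9 in the Sec24B knockdown and 5213 ± 628 with 50 nM scrambled siRNA and did not pass (limma adjusted p = 0.0783), nor did Ifit1, which binds foreign RNA ends (3902 ± 291 and 3185 ± 77.5, adjusted p = 0.268). Oas2, which makes the second messenger of RNase L, was at 1541 to 2087 in the Sec24B knockdown and 966 to 1066 with 50 nM scrambled siRNA (0.85 ± 0.10). Of these, Mx1, Ifitm1, Isg15 and Ifit1 lie outside the naming rule given with the methods and were chosen after their values were seen, as were other list members named below outside that rule.

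Of 11 interferon-inducible GTPases, which attack vacuoles of intracellular parasites, 4 rose and the list median was 0.36. Iigp1 had 486, 709.5, 653, 636 and 554 normalised counts in the Sec24B knockdown, against 359, 332, 351 and 292 with 50 nM scrambled siRNA (0.86 ± 0.18, limma adjusted p = 0.00164). Gbp3 was at 1452 to 1717 and 969 to 1038 in the same groups (0.61 ± 0.11), and Irgm2 at 1282 to 1542 and 1031 to 1228 (0.36 ± 0.09). The sensors and signalling factors upstream followed with 10 rises and 1 fall among 29 genes (median 0.19). Tlr3, an endosomal receptor for double-stranded RNA, had 829, 1017, 809, 947 and 853 in the Sec24B knockdown, against 544, 528, 548 and 409.8 with 50 nM scrambled siRNA. Its groups stood well apart (0.82 ± 0.11). Dhx58, a cytosolic RNA helicase of the RIG-I family, rose by 0.86 ± 0.13, and Irf7, the transcription factor that amplifies interferon production, averaged 3117 ± 229 and 1777 ± 146 (0.81 ± 0.13). Irf3, its constitutive relative, was at 512 ± 21.8 and 488 ± 18.7, with an interval of -0.10 to 0.24. The 1 fall was Socs3, a feedback inhibitor of cytokine signalling (-0.25, limma adjusted p = 0.0188), whose call was lost without Sec24B knockdown replicate 2 or 50 nM scrambled replicate 4.

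Promoter sequences of members that rose are shown because interferon-stimulated genes are recognised by a short element, the ISRE, searched here on both strands as GAAA, any bases at NN, and GAAA again. RefSeq promoters (GRCm38.p6, 250 bases before to 50 after the gene start) were at hand for 12468 tested genes, and 3.69% of them held a match. A match was found in 15 of 35 effectors with a promoter (42.9%), in 8 of 8 GTPases and in 5 of 20 MHC class I genes (25.0%). Among the effectors that passed, 6 of 17 held one (35.3%). In the stretches below, capitals mark the matches, read 5′ to 3′ along the gene's strand, whichever strand holds the match. They come from Rsad2 (chr12:26456523-26456612, minus strand), Gbp3 (chr3:142559965-142560054, plus strand) and H2-T22 (chr17:36042884-36042973, minus strand), and the matches begin 120, 39 and 191 bases before the gene start.
Rsad2: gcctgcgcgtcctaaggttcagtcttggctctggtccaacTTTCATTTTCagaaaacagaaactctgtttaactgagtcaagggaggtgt
Gbp3: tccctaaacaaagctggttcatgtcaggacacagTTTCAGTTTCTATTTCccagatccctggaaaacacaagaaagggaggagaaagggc
H2-T22: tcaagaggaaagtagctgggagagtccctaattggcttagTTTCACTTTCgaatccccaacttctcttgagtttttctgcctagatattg
In Gbp3 the capitals cover overlapping matches.

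Antigen presentation on MHC class I showed the highest list median, 0.52, with 13 rises and 1 fall among 23 genes. H2-K1, a classical class I heavy chain (GRCm38 chr17:33996017-34000347, minus strand), had 4197, 5033, 4882, 4154 and 3968 normalised counts in the Sec24B knockdown, against 1835, 1619, 1850 and 2370 with 50 nM scrambled siRNA. The highest control library, replicate 4, was well below the lowest knockdown library (1.22 ± 0.17, limma adjusted p = 2.16e-05). Psmb9, an immunoproteasome subunit that shapes the peptides for loading, had 199, 238, 232, 198 and 186 in the Sec24B knockdown and 54.3, 49.3, 48.7 and 74.4 with 50 nM scrambled siRNA (1.89 ± 0.20, adjusted p = 5.13e-07). The peptide transporter subunits Tap1 (0.74 ± 0.09) and Tap2 (0.88 ± 0.14) rose with them, as did the non-classical heavy chains H2-Q4 (2.15 ± 0.35) and H2-T22 (0.64 ± 0.11). Nlrc5, the transactivator of class I genes, was at 674 to 899.7 in the Sec24B knockdown and 531 to 569 with 50 nM scrambled siRNA (0.51 ± 0.08). Calr, an ER chaperone of the loading complex, was the member that fell (-0.30). Class I heavy chains are near-identical copies of one another, so how reads were divided among them is uncertain.

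Complement and acute phase genes had 5 rises among 15, and each of the calls concerned the classical pathway or its regulation. The protease genes C1ra, C1s1 and C1rl rose by 0.57 ± 0.08, 0.53 ± 0.10 and 0.56 ± 0.08. C1ra was at 1670, 1855, 1898, 1620 and 1684 normalised counts in the Sec24B knockdown, against 1182, 1180, 1141 and 1198 with 50 nM scrambled siRNA. The control values lay within a narrow band below the knockdown libraries. C4b, the substrate of C1s, averaged 66.6 ± 12.7 and 24.4 ± 2.97 in these groups (1.40 ± 0.34), and Serping1, the C1 inhibitor, averaged 30.7 ± 8.09 and 10.8 ± 1.92 (1.39 ± 0.25). Chemokines moved both ways, with 3 rises and 3 falls among 20. Cxcl10, an interferon-induced ligand of CXCR3, had 441, 482, 501, 498 and 438 in the Sec24B knockdown, against 246, 207, 226 and 263 with 50 nM scrambled siRNA. Every knockdown library lay above every control library (1.00 ± 0.21, limma adjusted p = 0.00198). The monocyte attractants Ccl2 and Ccl7 went the other way (-0.52 ± 0.06 and -0.58 ± 0.08), with Ccl2 at 2762 to 2958 in the Sec24B knockdown and 3894 to 4316 with 50 nM scrambled siRNA. With 150 nM scrambled siRNA as the control both calls were lost (-0.10 and 0.02). In the NF-kB feedback list the inhibitor Nfkbie (0.65 ± 0.10) and the subunit Relb (0.63 ± 0.11) rose while the subunit Nfkb1 (-0.45 ± 0.06) and the prostaglandin synthase Ptgs2 (-0.93 ± 0.14) fell.

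The interferon and MHC genes also differed between the scrambled doses, which share the 50 nM libraries with the comparison above. Rsad2 averaged 77.6 with 150 nM scrambled siRNA, against 241 with 50 nM. H2-K1 averaged 939.9 with 150 nM and 1919 with 50 nM, Cxcl10 averaged 52.3 and 236, and Iigp1 averaged 67.6 and 333. Over all genes 8.85% passed between the doses, and the median log2 difference, 150 minus 50 nM, was -0.74 for the effectors, -1.04 for the GTPases and -0.60 for MHC class I. With 150 nM scrambled siRNA as the control, 42 effectors, 10 GTPases and 20 MHC class I genes were higher in the Sec24B knockdown and 1 effector and 1 MHC class I gene lower, where 13.9% of all genes were higher. Other named genes differed between the doses too. With 150 nM and 50 nM scrambled siRNA, Ccn2 averaged 3528 and 1407, Spp1 4115 and 1382, and Trim54 93.7 and 30.8. In the same order, Dcn averaged 494 and 1302, Egr1 54.5 and 162, Apod 12.0 and 38.8, and Scara5 14.5 and 40.6. Lox (11341 and 11784), Sema5a (2000 and 1878) and Pltp (1699 and 1631) did not pass between the doses. The part of siRNA dose or of the transfection in these levels was not tested.

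**Figure D4:**
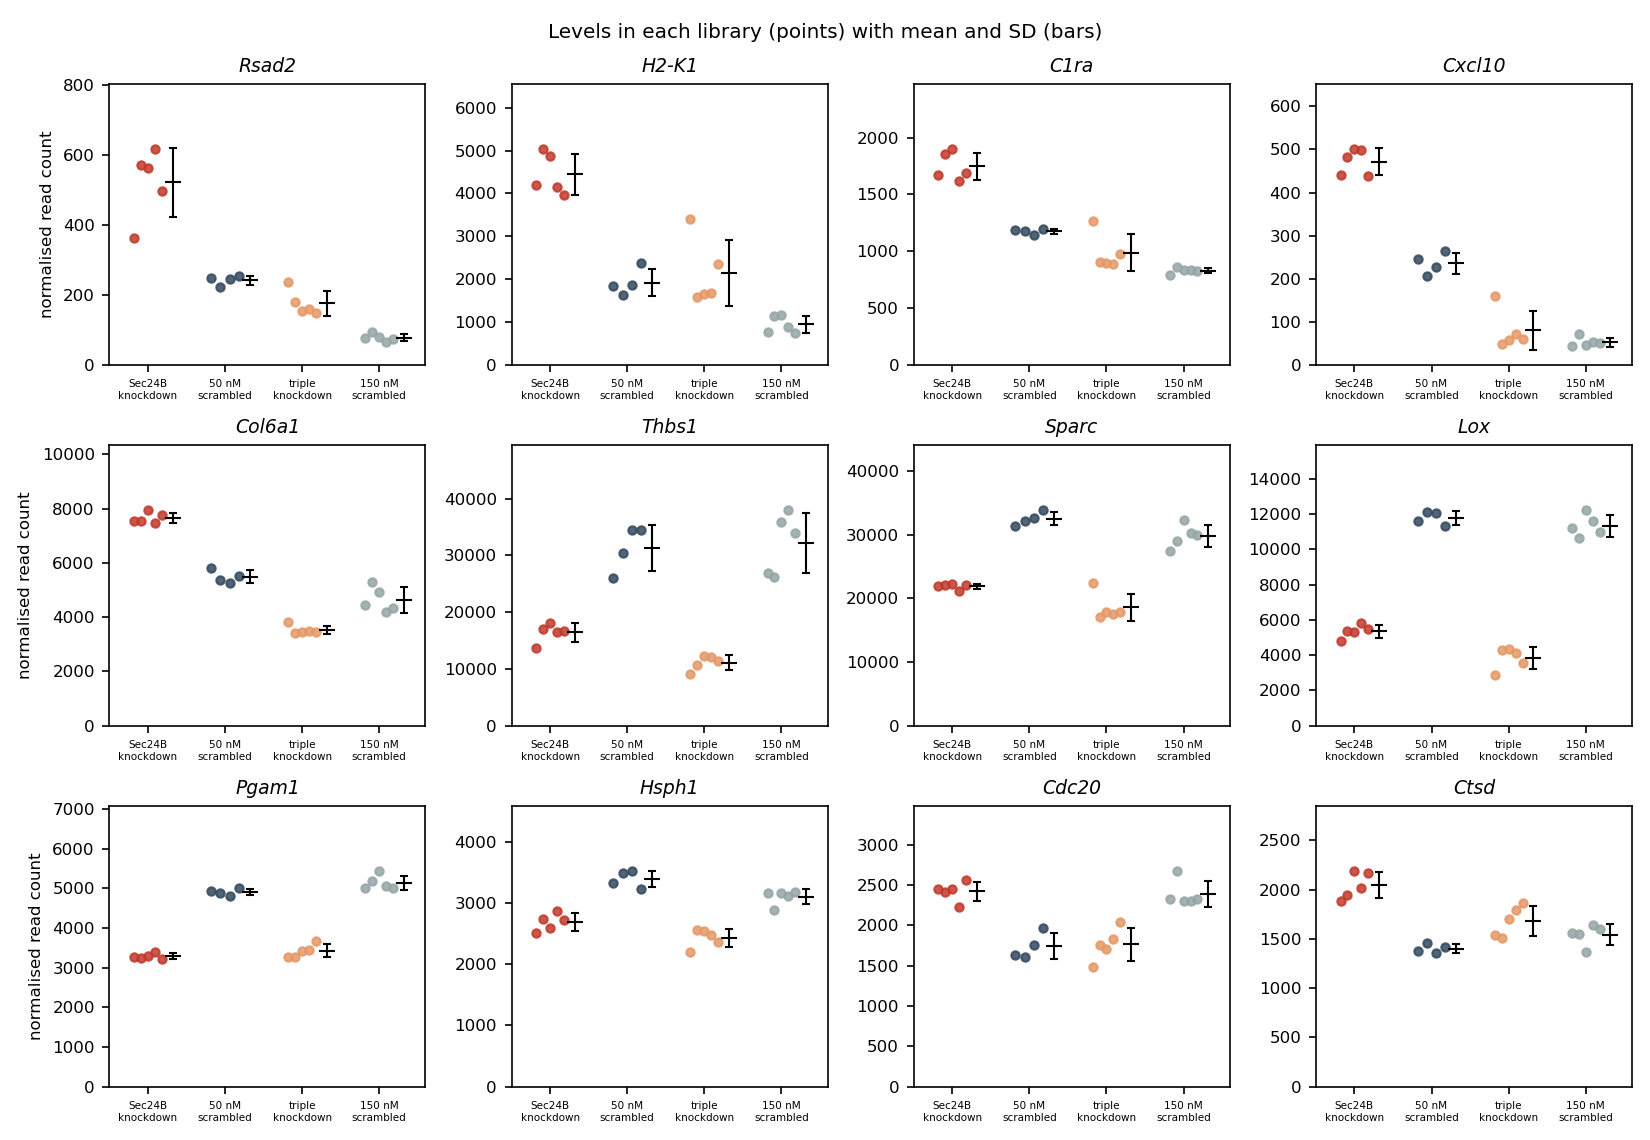
Normalised read counts of 12 genes in every library of the 4 groups, with mean and SD beside the points and each vertical axis starting at 0. Rsad2, H2-K1, C1ra, Cxcl10 and Col6a1 are higher in the Sec24B knockdown than with 50 nM scrambled siRNA, while Thbs1, Sparc, Lox, Pgam1 and Hsph1 are lower; Cdc20 is at a mean of 2422 in the Sec24B knockdown and 2389 with 150 nM scrambled siRNA.

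Glycolysis genes fell as a group, with 13 falls and 1 rise among 21 genes and a median log2 fold change of -0.26. Pgam1, phosphoglycerate mutase (GRCm38 chr19:41911923-41918660, plus strand), had 3278, 3248, 3297, 3407 and 3210 normalised counts in the Sec24B knockdown, against 4924, 4881, 4816 and 5012 with 50 nM scrambled siRNA. Both groups were tight and far apart (-0.58 ± 0.05, limma adjusted p = 2.59e-08). The falls reached almost every step: the glucose transporter Slc2a1 (-0.36), Hk2 (-0.52), the phosphofructokinase subunits Pfkl (-0.41) and Pfkm (-0.26), Pgk1 (-0.29), Eno1 (-0.29) and Ldha (-0.44), which turns pyruvate into lactate. Ldha was at 7404 to 8431 in the Sec24B knockdown and 10236 to 11756 with 50 nM scrambled siRNA. The third phosphofructokinase gene, Pfkp, rose by 0.31 (limma adjusted p = 0.00586). Gapdh (-0.27) and Pkm (-0.26) passed in the whole set but lost their calls without 1 of 3 and 1 of 4 libraries. Beyond pyruvate, 4 of 24 genes of the TCA cycle and pyruvate dehydrogenase fell, among them Dlat (-0.40 ± 0.05), the acetyltransferase of pyruvate dehydrogenase, and Idh3a (-0.38 ± 0.06). Pcx, the pyruvate carboxylase that replenishes oxaloacetate, was the exception. It had 328, 419, 369, 387 and 384 in the Sec24B knockdown, against 156, 163, 156 and 179.5 with 50 nM scrambled siRNA (1.20 ± 0.10, limma adjusted p = 2.07e-08).

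Hypoxia targets, genes bound by HIF, had 9 falls and 1 rise among 22 (median -0.21). Bnip3, a mitophagy receptor, had 333, 303, 305, 304 and 298 normalised counts in the Sec24B knockdown, against 549, 569.6, 456 and 464 with 50 nM scrambled siRNA. The control libraries formed a higher and a lower pair, both above the knockdown. P4ha1, a collagen prolyl hydroxylase subunit, fell by 0.43 ± 0.06 and Pdk1, which inhibits pyruvate dehydrogenase, by 0.42. The oxygen sensors Egln1 (-0.35 ± 0.05) and Egln3 (-0.64 ± 0.10), themselves HIF targets, fell too. Ndrg1, a stress-responsive gene, rose, averaging 1064 ± 82.7 in the Sec24B knockdown and 742 ± 37.5 with 50 nM scrambled siRNA (0.52 ± 0.11). HIF binds a core element, ACGTG, which short as it is was found in 27.9% of all promoters, in 12 of 16 hypoxia targets (75.0%) and in 13 of 20 glycolysis genes (65.0%). These stretches from Pgam1 (chr19:41911717-41911801, plus strand), Bnip3 (chr7:138909569-138909653, minus strand) and Hk2 (chr6:82774462-82774546, minus strand) show matches on either strand in capitals.
Pgam1: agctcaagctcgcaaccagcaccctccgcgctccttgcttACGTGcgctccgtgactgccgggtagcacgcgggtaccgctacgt
Bnip3: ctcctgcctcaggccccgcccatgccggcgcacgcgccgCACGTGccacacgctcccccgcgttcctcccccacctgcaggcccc
Hk2: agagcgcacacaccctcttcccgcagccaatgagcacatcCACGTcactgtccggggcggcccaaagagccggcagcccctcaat
The 6-base capitals in Bnip3 are overlapping matches on both strands, and the nearest matches lie 114, 107 and 52 bases before the gene start in the order given.

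Targets of the integrated stress response, in which ATF4 drives amino acid supply, had 13 rises and 2 falls among 35 (median 0.17). Slc7a5, the light chain of the large neutral amino acid transporter, had 4253, 4863, 4903, 4088 and 4473 normalised counts in the Sec24B knockdown, against 2526, 2719, 2682 and 2785 with 50 nM scrambled siRNA. Its groups were separated by more than their whole width (0.75 ± 0.07, limma adjusted p = 9.66e-08). Atf5, a transcription factor that ATF4 induces, had 4503, 4402, 4684, 3898 and 4456 in the Sec24B knockdown and 2474, 2442, 2280 and 2546 with 50 nM scrambled siRNA (0.85 ± 0.10). Asns, asparagine synthetase, rose by 0.42 ± 0.07, and Pck2, a mitochondrial carboxykinase, by 0.49 ± 0.09. The pseudokinase Trib3, which feeds back on ATF4, averaged 1345 ± 79.2 and 926 ± 55.6 in these groups. The 2 falls, Xpot (-0.23) and Nupr1 (-0.41), lost their calls without 1 of 4 libraries each, so that fewer falls, down to 0, were called when a library was left out. Aminoacyl-tRNA synthetases had 4 rises and 2 falls among 20 (median 0.08). Aars rose by 0.24 ± 0.06 and Hars fell by 0.29 ± 0.06. Sars (0.25 ± 0.07) was called with all libraries but not without 50 nM scrambled replicate 3 (0.23, adjusted p = 0.0696), and leaving out 1 library brought the rises in this list down to 2 in 6 of the 9 cases. The element that ATF4 and C/EBP proteins bind, searched as TGATGNAA, was in 2.89% of all promoters and in 10 of 30 of these targets (33.3%). Stretches from Vldlr (chr19:27216780-27216867, plus strand), a lipoprotein receptor that rose by 0.60 ± 0.09, from Asns (chr6:7693185-7693272, minus strand) and from Pck2 (chr14:55540123-55540210, plus strand) hold it in capitals, in Vldlr and Pck2 on the opposite strand.
Vldlr: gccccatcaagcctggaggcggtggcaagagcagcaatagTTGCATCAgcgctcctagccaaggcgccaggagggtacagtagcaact
Asns: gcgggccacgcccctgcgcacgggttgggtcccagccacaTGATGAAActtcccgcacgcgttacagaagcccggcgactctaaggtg
Pck2: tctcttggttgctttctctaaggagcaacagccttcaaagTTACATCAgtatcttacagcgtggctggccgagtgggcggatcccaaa
The matches begin 200, 23 and 103 bases before the gene start in that order.

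Transcripts of extracellular matrix genes both rose and fell within the families described here. Among lysyl oxidases, which cross-link collagen and elastin, Lox (chromosome 18) had 4778, 5365, 5323, 5810 and 5511 normalised counts in the Sec24B knockdown, against 11602, 12141, 12078 and 11313 with 50 nM scrambled siRNA. The knockdown libraries held less than any control by a wide margin (-1.14 ± 0.09, limma adjusted p = 9.03e-09). Loxl1 fell by 0.35 ± 0.08, and Loxl3 rose, at 2562 to 2962 in the Sec24B knockdown and 2208 to 2503 with 50 nM scrambled siRNA (0.27 ± 0.06).

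Of 22 collagen chains, 5 rose and 6 fell (median -0.10). Both abundant chains of collagen VI, a beaded microfibril collagen, rose. Col6a1 (GRCm38 chr10:76708792-76726168, minus strand) had 7526, 7557, 7941, 7467 and 7747 normalised counts in the Sec24B knockdown, against 5826, 5361, 5274 and 5512 with 50 nM scrambled siRNA, and Col6a2 had 3534, 3679, 3684, 3393 and 3639, against 2382, 2355, 2244 and 2229. Neither gene overlapped between the groups (0.48 ± 0.06 and 0.64 ± 0.08). The fibrillar chains Col3a1 (0.29 ± 0.07), Col5a3 (0.96 ± 0.15) and Col11a1 (0.62 ± 0.09) rose as well, while the main chains of collagen I did not pass: Col1a1 was at 161711 ± 10032 in the Sec24B knockdown and 184130 ± 11105 with 50 nM scrambled siRNA (interval -0.41 to 0.04). Col7a1, which forms anchoring fibrils, fell to 627 to 682, against 941 to 1134 in the control (-0.63 ± 0.08), and Col12a1, a fibril-associated chain, averaged 862 ± 113 and 1412 ± 195 (-0.71 ± 0.14). The network chains Col4a1 and Col4a2 were lower by 0.31 and 0.26. Without Sec24B knockdown replicate 1 and 50 nM scrambled replicate 4 together, 3 collagen falls were called.

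Matrix glycoproteins and proteoglycans had 5 rises and 9 falls among 32, with a list median of 0.07. Thbs1, thrombospondin 1 (GRCm38 chr2:118111876-118127133, plus strand), had 13685, 17069, 18128, 16577 and 16739 normalised counts in the Sec24B knockdown, against 26076, 30356, 34398 and 34404 with 50 nM scrambled siRNA. Controls ranged more widely than knockdown libraries, without overlap (-0.93 ± 0.12, limma adjusted p = 3.97e-06). Sparc, a collagen-binding glycoprotein, had 22005, 22036, 22203, 21150 and 22022 in the Sec24B knockdown and 31354, 32185, 32582 and 33853 with 50 nM scrambled siRNA (-0.57 ± 0.07). Tenascin C (Tnc, -0.67 ± 0.12), fibulin 2 (Fbln2, -0.58 ± 0.09) and fibrillin 1 (Fbn1, -0.52 ± 0.11) fell. Ndnf, a secreted fibronectin-domain protein, fell by 1.64 ± 0.15, with 65.7 to 76.9 in the Sec24B knockdown and 201 to 268 with 50 nM scrambled siRNA. Fibronectin (Fn1) averaged 117733 ± 16390 and 141772 ± 9505 in these groups and did not pass (limma adjusted p = 0.195). On the rising side stood Dcn, decorin, with 2473, 2427, 2074, 2398 and 2136 in the Sec24B knockdown, against 1565, 1442, 1172 and 1029 with 50 nM scrambled siRNA (0.84 ± 0.17), beside the proteoglycans Prelp and Fmod described above. Without 50 nM scrambled replicate 1 the rises in this list numbered 3.

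Matrix proteases and their inhibitors split likewise, with 4 rises and 6 falls among 24 (median 0.02). Plaur, the urokinase receptor, had 309.9, 254, 324, 289 and 295 normalised counts in the Sec24B knockdown, against 405, 431, 472 and 563 with 50 nM scrambled siRNA. Every knockdown library lay below every control library (-0.66 ± 0.11, limma adjusted p = 0.000203). The aggrecanase gene Adamts4 fell by 0.61. The metalloproteinases Mmp11 (0.47 ± 0.06) and Mmp23 (0.59 ± 0.08) rose. Of 17 integrins, receptors for the matrix, 5 fell, including Itgb1 (-0.30 ± 0.08), the common beta chain, and Itga5 (-0.33 ± 0.06), its fibronectin-binding partner. Without both libraries farthest from their groups 2 integrins fell.

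Target genes of YAP and SRF, transcriptional regulators that respond to cell tension, had 8 falls and 1 rise among 22. Ccn2, described above, is one of them, and its relative Ccn1 fell by 0.35. Myh9, the heavy chain of non-muscle myosin IIA, had 18207, 20602, 21360, 19589 and 21661 normalised counts in the Sec24B knockdown, against 38095, 40756, 42588 and 45797 with 50 nM scrambled siRNA. Every knockdown library lay far below every control library (-1.04 ± 0.11, limma adjusted p = 2.90e-07). Ankrd1 (-0.58 ± 0.07), the LIM protein gene Ajuba (-0.43 ± 0.06), tropomyosin 1 (Tpm1, -0.25) and transgelin (Tagln, -0.41) fell, and calponin 2 (Cnn2) rose by 0.33. The list median was -0.10. With 150 nM scrambled siRNA as the control 14 fell and 0 rose, and without 50 nM scrambled replicate 1 the rises numbered 2. Among TGF-beta and BMP targets, which also hold Ccn1 and Ccn2, 8 of 20 fell and 2 rose, while the list median was -0.02. Skil, a repressor of SMAD signalling, had 220.1, 209, 189, 230.0 and 206 in the Sec24B knockdown, against 416, 409, 378 and 403 with 50 nM scrambled siRNA (-0.93 ± 0.10). The feedback genes Pmepa1 (-0.77 ± 0.08) and Smad7 (-0.30) fell with it, whereas the latent TGF-beta binding protein gene Ltbp2 (0.56) and the BMP target Id2 (0.56) rose.

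Growth factor ligands fell more often than they rose, 10 against 2 among 40 (25.0% and 5.00%), with a list median of -0.09. Inhba, the subunit of activin A, averaged 469.6 ± 25.5 normalised counts in the Sec24B knockdown and 941 ± 26.2 with 50 nM scrambled siRNA. Both groups were narrow and did not overlap (95% interval of the log2 fold change -1.17 to -0.84, limma adjusted p = 9.95e-09). Vegfb averaged 539.8 ± 29.7 in the Sec24B knockdown and 883 ± 84.5 with 50 nM scrambled siRNA (-0.71 ± 0.08). Hbegf (-0.51), an EGF receptor ligand, Pdgfb (-0.89 ± 0.18) and the scatter factor Hgf (-1.18 ± 0.30), which averaged 10.9 and 25.7, fell too. Vegfd rose by 0.38. The other rise, Kitl (0.42), lost its call without any of 7 of the libraries. Among 32 receptor tyrosine kinases 2 rose and 1 fell, and 6 fell with the 9 libraries alone. Ephb6, a kinase-dead ephrin receptor, had 203, 198, 206, 210.1 and 221 in the Sec24B knockdown and 117, 134, 137 and 104 with 50 nM scrambled siRNA (0.76 ± 0.10). Pdgfrb, the receptor of PDGF-B, averaged 2637 ± 166 and 3109 ± 118 (-0.24 ± 0.06), a call lost with 150 nM scrambled siRNA as the control (0.01). The other rise, Epha2 (0.23 ± 0.07), was lost without any of 6 of the libraries (adjusted p 0.0612 to 0.175), and without 50 nM scrambled replicate 4 the falls in this list numbered 4.

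In the early secretory pathway, where SEC24B acts, both rises and falls were called. Among 18 genes of the COPII coat and ER exit sites 1 rose and 3 fell. Sar1a, the GTPase that starts coat assembly, had 3610, 3424, 3222, 3496 and 3298 normalised counts in the Sec24B knockdown, against 4149, 4194, 4117 and 3902 with 50 nM scrambled siRNA (-0.26 ± 0.05, limma adjusted p = 0.00128). Every knockdown library lay below every control library. Sec16b, an exit site scaffold, rose by 0.36 ± 0.08. Sec23b, the partner of SEC24 in the coat, fell by 0.22 ± 0.06, a call lost without Sec24B knockdown replicate 1 (-0.18, adjusted p = 0.0523), and 1 fall was left in this list without both libraries farthest from their groups. Of 24 ER export receptors 4 rose and 6 fell. Tmed5, a p24 cargo receptor, had 638, 599, 513, 626 and 521 in the Sec24B knockdown and 913, 938, 854 and 869 with 50 nM scrambled siRNA (-0.63 ± 0.09). The KDEL receptor genes split, with Kdelr2 lower (-0.42 ± 0.07) and Kdelr3 higher (0.23). Mcfd2, which helps export coagulation factors, rose by 0.32. Among SNAREs and tethers of this step Nsf (-0.27 ± 0.05) and Ykt6 (-0.24 ± 0.06) fell, and Stx5a (0.20 ± 0.06, limma adjusted p = 0.0301) lost its call without any of 6 of the libraries (adjusted p 0.0599 to 0.0999). None of 15 COPI coat genes passed with limma over the 19 libraries, edgeR, DESeq2 or limma-voom, and 1 had an unadjusted p under 0.05. With limma on the 9 libraries alone, or without triple knockdown replicates 1 and 5, 1 COPI gene passed as higher, and with 150 nM scrambled siRNA as the control 2 did.

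Planar cell polarity genes, the pathway of the known SEC24B cargo VANGL2, had 3 rises and 3 falls among 18, and 4 rises and 5 falls with the 9 libraries alone or without triple knockdown replicates 1 and 5. With 150 nM scrambled siRNA, or both scrambled groups, as the control 6 fell. Vangl2 itself was at 393, 359, 384, 320.4 and 349 normalised counts in the Sec24B knockdown, against 391, 399, 409 and 455 with 50 nM scrambled siRNA. The groups overlap in 1 library, and the interval ran from -0.36 to -0.03 (limma adjusted p = 0.107). Its paralog Vangl1 rose, with 480.0 to 541 in the Sec24B knockdown and 338 to 386 with 50 nM scrambled siRNA (0.45 ± 0.09). Ptk7, a pseudokinase co-receptor, rose by 0.42 ± 0.06, and the Wnt receptor Fzd6 had 95.9, 135, 115, 124 and 107 in the Sec24B knockdown, against 217, 224, 199.6 and 184 with 50 nM scrambled siRNA (-0.84 ± 0.12). Transcript levels say nothing about where these proteins are in the cell.

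Cytosolic and mitochondrial chaperones of the heat shock list had 15 falls among 33 (45.5%), the remainder not passing, with a median of -0.20. In 18 of the 33 every knockdown library lay below every control library, which held for 9.13% of all genes. Dnaja2, an HSP40 co-chaperone, had 2258, 2287, 2106, 2374 and 2284 normalised counts in the Sec24B knockdown, against 3336, 3363, 3276 and 2967 with 50 nM scrambled siRNA. The knockdown libraries all lay below the lowest control (-0.52 ± 0.06, limma adjusted p = 2.15e-06). Hspa4l, an HSP110 family member, averaged 129 ± 10.5 and 238 ± 16.3 (-0.88 ± 0.13), and Hsp90aa1, the inducible HSP90, averaged 9066 ± 502 and 11082 ± 124 (-0.29 ± 0.07). The heat shock element, searched as GAA, TTC and GAA with NN between each, was in 0.537% of all promoters and in 5 of 27 list members (18.5%). It is shown from Hspd1, the mitochondrial chaperonin, which fell by 0.37 ± 0.06 (chr1:55088019-55088111, minus strand), where overlapping matches are in capitals and the one nearest the start begins 139 bases before it.
Hspd1: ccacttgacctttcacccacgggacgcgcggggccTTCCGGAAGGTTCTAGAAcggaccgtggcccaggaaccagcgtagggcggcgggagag
ER chaperones and genes of the unfolded protein response had 4 rises and 7 falls among 31 (median -0.09). Herpud1, a component of ER-associated degradation, was at 1657 to 1741 in the Sec24B knockdown and 1333 to 1377 with 50 nM scrambled siRNA (0.34 ± 0.08), and Edem1, which draws misfolded glycoproteins from folding, at 812 to 881 and 1110 to 1197 (-0.43 ± 0.06). The chief ER chaperone BiP (Hspa5) was at 6745 ± 119.9 and 6298 ± 186 and did not pass (interval -0.08 to 0.28). The rises numbered 2 without Sec24B knockdown replicate 4 or 5 or 50 nM scrambled replicate 1 or 3, and the falls 4 without 50 nM scrambled replicate 2.

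Golgi enzymes of glycan synthesis and sulfation had 8 falls and 3 rises among 38 (median -0.04). Chst11, a chondroitin sulfotransferase, had 384, 438, 421, 478 and 419 normalised counts in the Sec24B knockdown, against 669, 666, 710.5 and 654 with 50 nM scrambled siRNA. No knockdown library came near the control range (-0.66 ± 0.09). Ext1, which extends heparan sulfate, fell by 0.39 ± 0.06 while its partner Ext2 rose by 0.22, and the sialyltransferase gene St6gal1 fell by 0.42. Chst2, a sulfotransferase of keratan sulfate and related chains, averaged 98.2 ± 7.06 in the Sec24B knockdown and 56.5 ± 4.92 with 50 nM scrambled siRNA (0.79 ± 0.14), a call lost with 150 nM scrambled siRNA as the control (0.13).

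Of 25 cholesterol genes 8 fell and 3 rose (median -0.07). Sc5d, a desaturase late in sterol synthesis, had 579, 581, 547, 546 and 606 normalised counts in the Sec24B knockdown, against 837, 921, 874 and 846 with 50 nM scrambled siRNA. Its highest knockdown library stayed below the lowest control (-0.60 ± 0.07, limma adjusted p = 1.41e-06). Hsd17b7 (-0.61 ± 0.11) and the epoxidase Sqle (-0.36) fell as well. Dhcr7, which catalyses the last step of one branch, rose, with 345 ± 36.2 in the Sec24B knockdown and 241 ± 13.8 with 50 nM scrambled siRNA (0.51 ± 0.10). Among 15 genes of fatty acid synthesis the elongase Elovl5 rose (0.35 ± 0.07) and the acyl-CoA ligase Acsl3 fell (-0.35 ± 0.08). The Acsl3 call was lost with 150 nM scrambled siRNA as the control (-0.06), and leaving out Sec24B knockdown replicate 1 brought the falls to 2, or replicate 3 or 50 nM scrambled replicate 4 the rises to 2.

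Cell cycle genes moved in opposite directions by phase. DNA replication genes had 8 falls among 36 with the others not passing (median -0.08). Mcm4, a subunit of the replicative helicase, had 1656, 1543, 1575, 1528 and 1471 normalised counts in the Sec24B knockdown, against 2369, 2449, 2570 and 2569 with 50 nM scrambled siRNA. Its groups were tight and separate (-0.68 ± 0.06, limma adjusted p = 2.69e-08). The E-type cyclins Ccne1 (-0.70 ± 0.10) and Ccne2 (-0.58) and the transcription factor E2f1 (-0.41 ± 0.06) fell with it. Mitosis genes had 13 rises among 33 (median 0.19). Cdc20, the activator of the anaphase-promoting complex, had 2458, 2419, 2449, 2225 and 2559 in the Sec24B knockdown, against 1640, 1610, 1757 and 1970 with 50 nM scrambled siRNA. The mitosis calls were sensitive to the control libraries, with 7 rises without 50 nM scrambled replicate 1, 8 without replicate 4, and 2 with 150 nM scrambled siRNA as the control. Cdc20 averaged 2389 with 150 nM and 1744 with 50 nM scrambled siRNA, and Aurka averaged 1638 and 1313. Cdkn1b, the inhibitor p27, averaged 1417 ± 118 in the Sec24B knockdown and 986 ± 118 with 50 nM scrambled siRNA (0.53 ± 0.09). It belongs to a list of p53 targets and growth arrest genes with 6 rises and 4 falls among 28, in which Sesn1 (0.50 ± 0.08) and the death receptor gene Fas (0.66 ± 0.12) rose and Tigar (-0.35), a regulator of glycolytic flux, fell. The falls in that list numbered 2 without Sec24B knockdown replicate 2, 4 or 5 or 50 nM scrambled replicate 1 or 3.

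Lysosomal genes had 10 rises and 2 falls among 34 (median 0.09). Ctsd, the aspartic protease cathepsin D, had 1889, 1950, 2188, 2020 and 2171 normalised counts in the Sec24B knockdown, against 1377, 1457, 1353 and 1417 with 50 nM scrambled siRNA. All knockdown values were higher than all controls (0.54 ± 0.07, limma adjusted p = 5.48e-06). The acid lipase Lipa rose by 0.52 ± 0.07 and the cysteine protease Ctso, at 91.9 to 112 in the Sec24B knockdown and 36.8 to 64.1 with 50 nM scrambled siRNA, by 1.19 ± 0.18. Glutathione S-transferases of the NRF2 list rose as well. Gstm1 averaged 1511 ± 136 in the Sec24B knockdown and 922 ± 20.9 with 50 nM scrambled siRNA (0.71 ± 0.08), and its paralog Gstm2 rose by 0.44 ± 0.11. Nqo1, a quinone reductase, was at 844 to 928 and 544 to 576 in these groups (0.67 ± 0.10), but it averaged 1079 with 150 nM scrambled siRNA, above the knockdown. Of 22 NRF2 targets 3 rose and 3 fell, with 1 fall without Sec24B knockdown replicate 4 or 5 or 50 nM scrambled replicate 4.

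Developmental signalling genes rose in small numbers. In the Notch and hedgehog list 4 of 20 rose and 1 fell. Notch3, a receptor of mural cells and fibroblasts, had 2930, 3287, 3322, 3124 and 3324 normalised counts in the Sec24B knockdown, against 2440, 2359, 2312 and 2369 with 50 nM scrambled siRNA (0.43 ± 0.07). The ligand Dll1 averaged 139.8 ± 12.5 and 85.8 ± 4.78 in these groups (0.70 ± 0.13), and the Notch target Hes1 went the other way (-0.41 ± 0.10). Gli1, a hedgehog target and effector, was counted at 13.5, 11.8, 10.2, 14.1 and 24.2 in the Sec24B knockdown and 2.17, 2.94, 2.36 and 8.27 with 50 nM scrambled siRNA, a rise that rests on few reads (1.77 ± 0.44, limma adjusted p = 0.00688). In the WNT list 5 of 31 rose, led by the secreted antagonist Sfrp2, with 70.8 to 87.3 in the Sec24B knockdown and 32.6 to 46.1 with 50 nM scrambled siRNA (0.99 ± 0.21). The repressor Tcf7l1 (0.23 ± 0.07) lost its call without 50 nM scrambled replicate 2 (0.22, adjusted p = 0.0572), and leaving out that library, replicate 3 or Sec24B knockdown replicate 2, 4 or 5 brought the WNT rises to 3. Without Sec24B knockdown replicate 4 or 50 nM scrambled replicate 4, 1 WNT gene fell.

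Immediate early genes had 4 rises and 6 falls among 33. Egr1 (chromosome 18), a zinc finger factor of the serum response, had 354, 356, 396, 466 and 394 normalised counts in the Sec24B knockdown, against 166, 143, 186 and 152 with 50 nM scrambled siRNA. The lowest knockdown library lay well above the highest control (1.27 ± 0.13, limma adjusted p = 1.82e-07). Fosl2, a subunit of AP-1, averaged 2086 ± 164 and 3319 ± 110.2 and fell (-0.67 ± 0.13), and Klf10, a TGF-beta early gene, fell by 0.48 ± 0.08. The falls numbered 3 without Sec24B knockdown replicate 1 or without any of 50 nM scrambled replicates 2, 3 and 4. Circadian clock genes had 3 rises and 2 falls among 17, with Bhlhe40, a repressor induced by hypoxia and TGF-beta, at 635 to 682 in the Sec24B knockdown and 1019 to 1133 with 50 nM scrambled siRNA (-0.67 ± 0.07), and 1 rise was called without 50 nM scrambled replicate 3. In the RNA interference machinery Ago2, the slicer Argonaute, averaged 1964 ± 149.8 in the Sec24B knockdown and 2867 ± 239 with 50 nM scrambled siRNA (-0.54 ± 0.12), and the exporter Xpo5 fell by 0.34 ± 0.06. Both groups received siRNA at the same dose.

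Few genes of the ribosome and proteasome passed. None of 38 ribosomal protein genes passed with limma, edgeR, DESeq2 or limma-voom, none had an unadjusted p under 0.05, and their log2 fold changes ranged from -0.14 to 0.08. Of 31 proteasome genes Psmd11 and Psmd12 fell, by 0.22 ± 0.05 and 0.21 ± 0.06. The Psmd12 call was lost with 150 nM scrambled siRNA as the control (-0.10). The 13 mitochondrially encoded genes had a median of -0.19 and 1 call, mt-Nd6, at 66.5 to 200.4 in the Sec24B knockdown and 229 to 442 with 50 nM scrambled siRNA (-1.09 ± 0.28). That call was lost without 50 nM scrambled replicate 1 (-0.90, adjusted p = 0.0513), and 7 genes of this list passed as lower without both libraries farthest from their groups, 4 without Sec24B knockdown replicate 1 and 2 without 50 nM scrambled replicate 4. With 150 nM scrambled siRNA as the control the mt-Nd6 call was lost too (-0.45, limma adjusted p = 0.230). The gene mt-Nd6 lies on the minus strand. Whether counting used the strand is not stated, so reads from the opposite strand may be included. Among 9 adipocyte, bone and cartilage markers 2 rose and 2 fell, and a rise was lost without any 1 library. The falls were Runx2, the osteoblast factor, at 595 to 701 in the Sec24B knockdown and 789 to 949 with 50 nM scrambled siRNA (-0.42 ± 0.10), and Sox9, the cartilage factor (-0.38 ± 0.10). Of 4 muscle markers Des, the filament protein desmin, rose (0.78 ± 0.12) and Tnnt2, a cardiac troponin, fell (-0.81 ± 0.12), and the call on Des was lost with 150 nM scrambled siRNA as the control (0.28).

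A test of the difference between the knockdown effects, (Sec24B knockdown minus 50 nM scrambled) minus (triple knockdown minus 150 nM scrambled), asked where the responses differ. The effects differ in their scrambled control as well as in the genes targeted, and these cannot be told apart here. Between the controls themselves 8.85% of all genes passed, and Aurka was higher with 150 nM than with 50 nM (0.32, limma adjusted p = 0.000981). Over all genes 15.8% passed the test of the difference. Mitosis genes stood out by count, since 30 of 33 had a higher effect in the Sec24B knockdown than in the triple knockdown. For Aurka the difference was 0.85 (limma adjusted p = 6.17e-08), with a rise of 0.29 after Sec24B knockdown and a fall of 0.56 after triple knockdown. Of the cholesterol genes 24 of 25 differed and lay above the triple effect, and for Sqle, which fell in both, the difference was 0.71. Of the integrated stress response targets 30 of 35 lay below it, with an effect on Slc7a5 of 0.75 for the Sec24B and 1.51 for the triple knockdown. Among collagen chains 15 of 22 lay above. Col3a1 averaged 8463 in the Sec24B knockdown and 6915 with 50 nM scrambled siRNA, but 3305 in the triple knockdown and 6380 with 150 nM scrambled siRNA, a difference of 1.23 (limma adjusted p = 4.87e-09). Triple knockdown replicates 1 and 5 stood apart from their group and enter this test.

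Among the 153 genes named by the rule given with the methods, 13 passed in both knockdowns with opposite signs. For Kdelr2 and Sar1a the Sec24B knockdown was lower and the triple knockdown higher than its own control, with differences of -0.64 and -0.44. The remaining 11 rose in the Sec24B knockdown and fell in the triple knockdown, among them Col6a2 (difference 0.99), Cdc20 (0.92), Notch3 (0.84), Zfp36l1, an RNA decay factor (0.61), Loxl3 (0.57) and the clock output factor Tef (0.42). The rises of the mitosis genes depended on the control. With 150 nM scrambled siRNA as the control, the Sec24B knockdown calls on Cdc20 (0.02), Aurka (-0.03) and Ccnb2 (0.20) were lost, and the others were kept. Unlike these 13 genes, Rsad2 (difference -0.07, limma adjusted p = 0.873) and Pgam1 (0.01, adjusted p = 0.951) gave differences near 0. The effects were 1.09 and 1.15 for Rsad2 and -0.58 and -0.59 for Pgam1 in the Sec24B and triple knockdowns. Rsad2 does not stand for all interferon genes. Of 45 effectors 9 had a higher effect in the Sec24B knockdown and 0 a lower one, and of 29 sensors and signalling factors 11 and 0. Cmpk2 differed by 0.48 (limma adjusted p = 0.0133) and Tlr3 by 0.59 (adjusted p = 0.00898).

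**Figure D5:**
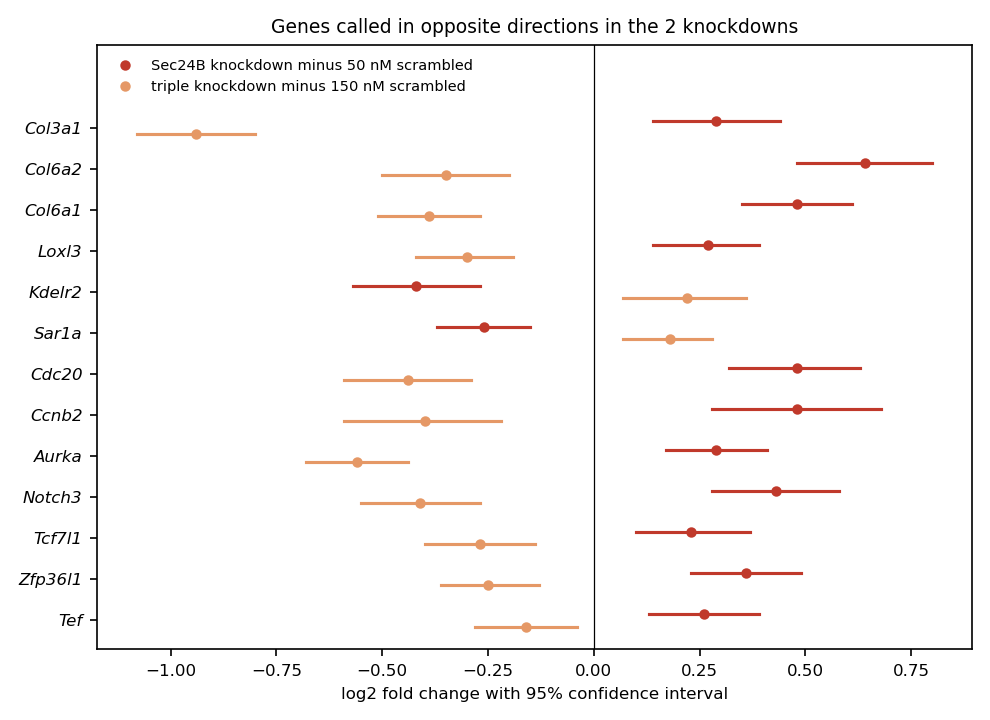
Log2 fold changes with 95% confidence intervals for the 13 named genes that passed with opposite signs, for the Sec24B knockdown minus 50 nM scrambled siRNA (red) and the triple knockdown minus 150 nM scrambled siRNA (orange). Col3a1 is at 0.29 for the Sec24B and -0.94 for the triple knockdown. Kdelr2 and Sar1a are the only genes shown that are below 0 in the Sec24B knockdown. The Sec24B knockdown calls on Cdc20, Aurka and Ccnb2 were lost with 150 nM scrambled siRNA as the control.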

How the data were processed

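RNA from 19 libraries was sequenced by the authors, and 1 table of genes by libraries was deposited. Per the submitters' processing notes, reads passed through Trimmomatic 0.27, FastQC 0.10.1, TopHat2 2.0.8 and Partek 6.6, and human builds (hg19, GRCh37) are named there. Mouse identifiers head the rows, and GENCODE M21 (GRCm38) holds 19685 of these 19716, 99.1% at identical start and end, so coordinates follow that build. Whether counting used the strand is not given in the sources used here. The deposited signal values are gene read counts divided by 1 factor per library, here called normalised counts. Whole reads were recovered for 100.0% of values within 0.0055, and 1 read was worth 0.736 to 1.2296 in the 9 libraries. The authors' deposited table also holds log2 fold changes and adjusted p-values. Of the genes tested here, 3243 passed in the authors' deposited table, 2750 of them called here with the same direction, and 4371 adjusted p-values were missing.

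Values were tested as log2(value + 1) with limma 3.58.1 (R 4.3.3, trend), with all 19 libraries and 4 group means in 1 fit, so that the groups share the estimate of spread. Genes needed a value of 1 in 4 libraries (81 removed), and p-values were adjusted by Benjamini-Hochberg over all 19635. Fold changes on this scale understate changes of low genes. The script was tested on simulated data. Means carry SDs (n = 5 for the Sec24B knockdown, 4 for 50 nM scrambled), and fold changes carry SEs. The alternatives included edgeR 4.0.16, DESeq2 1.42.0 and limma-voom on the recovered reads, and each library left out in turn.

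The members and lists were chosen with earlier results of these data known, and listed older symbols were matched through RefSeq synonyms. Genes were named by rule: the SEC24 paralogs; among passing, non-overlapping genes with a regular symbol, the 10 greatest rises and falls with a mean of at least 20 and the 6 with a mean of at least 1000; and up to 3 passing members per list with the smallest adjusted p.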

Additional observations from a re-analysis of the deposited data

Results flagged for a closer look

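In 15 of 306 checked groups of named genes, 1 library stood apart from the others of its group by Dixon's criterion, and chance alone marks about 1 in 20. Among the Sec24B knockdown libraries, Bnip3 was highest in replicate 1 at 333 normalised counts, Ptgs2 was highest in replicate 2 at 265, and Dll1 was highest in replicate 3 at 161. Sparc was lowest in Sec24B knockdown replicate 4 at 21150, and so was Ces2e at 29.3. Among the 50 nM scrambled libraries, replicate 1 was highest for Col3a1 at 7513 and lowest for Vangl1 at 338, and replicate 2 was lowest for Tcf7l1 at 866. 50 nM scrambled replicate 3 was lowest for Sars at 3750 and highest for Ext1 at 2666 and Hspa4l at 262. 50 nM scrambled replicate 4 was highest for Bhlhe40 at 1133, Tap1 at 2362 and Mmp23 at 451, and lowest for Tlr3 at 409.8.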

How the results depend on the processing

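Sec24b stayed lower under every alternative run. Against the 2868 genes called (1478 higher, 1390 lower), 4470 (2326 and 2144) were called with both scrambled groups pooled as the control, and 5377 (2737 and 2640) with 150 nM scrambled siRNA as the control, which changed the sign of 123 calls. Leaving out 1 library gave 2138 to 2539 calls (1123 to 1326 higher, 1015 to 1225 lower). Without triple knockdown replicates 1 and 5 in the fit, chosen after seeing the data, 4266 genes were called (2103 higher, 2163 lower), with 2867 of the 2868 calls kept. The number of calls, and which genes did not pass, thus depend on libraries outside the comparison that enter through the shared spread. With 150 nM scrambled siRNA as the control the sign changed for Ccl7 (0.02), Aurka (-0.03), Nqo1 (-0.28) and Pdgfrb (0.01). A replicate block gave 2654 calls, 2526 of them shared with the unblocked fit, and ended the call on Stx5a (0.19, limma adjusted p = 0.0593). Same-numbered libraries correlated at 0.069, 0.142, 0.075 and -0.362, and differently numbered libraries at -0.309 to 0.295. These values show no pairing by number, but so few pairs cannot exclude it. TMM rescaling, which moved the median of all genes by less than 0.1, gave 2868 calls, limma on the 9 libraries alone 4145, edgeR 2928 and DESeq2 3253. Genes under 10 normalised counts passed in 2.70% of cases, where few reads limit what could be detected. The causes were not tested.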
